A study of Mus musculus with 16 samples.

Results

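The 10 whole-skin libraries of this series were ordered by how strongly they expressed the keratins of growing hair, and the 5 highest were set against the 5 lowest. Each library was scored by the mean of log2(value + 1) over 12 keratins, of which 6 belong to the inner root sheath (Krt25, Krt27, Krt28, Krt71, Krt72 and Krt73) and 6 to the hair shaft (Krt31, Krt33a, Krt34, Krt35, Krt81 and Krt86). The values are the normalised read counts that the authors deposited for each gene. The series holds 16 libraries, and the remaining 6 are of sorted hair follicle stem cells (HFSC).

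All 10 skin libraries came from back skin of C57BL/6 mice aged 8 months, 5 labelled Control and 5 labelled GRK2 eKO, and poly-A RNA was sequenced in each. The labels do not spell out eKO, and name neither the promoter that drives the deletion nor the sex of the animals, and they do not say that each library is a separate animal. The HFSC libraries, 3 control and 3 eKO, were of bulge cells sorted for CD34 and α6-integrin, and their labels give an age of 18 months where the design text of the series gives 8. Control and eKO skin libraries are called control 1 to 5 and eKO 1 to 5 below.

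The hair follicle passes through cycles of growth (anagen), regression (catagen) and rest (telogen). In anagen the matrix at the base of the bulb divides and gives rise to the inner root sheath, which moulds the hair, and to the shaft, which is built of hair keratins and keratin-associated proteins. At rest the bulb is gone and the stem cells stay in the bulge, next to the dermal papilla. The labels give no stage of the hair cycle.

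The score fell from 12.9 in control 4 through 11.2 in eKO 3, 10.1 in eKO 4, 9.16 in control 5 and 8.43 in control 3, which form the high-score group. It was 8.11 in eKO 2, 4.55 in control 2, 2.59 in eKO 5, 1.97 in eKO 1 and 1.24 in control 1, which form the low-score group. All values per library below follow this order. The groups lie only 0.317 apart at the boundary, between control 3 and eKO 2, while the widest step of the whole order, 3.56, lies within the low-score group, between eKO 2 and control 2. The libraries thus do not fall into separate classes at the boundary, and they are called the high-score and the low-score group rather than growing and resting skin.

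**Figure D1:**
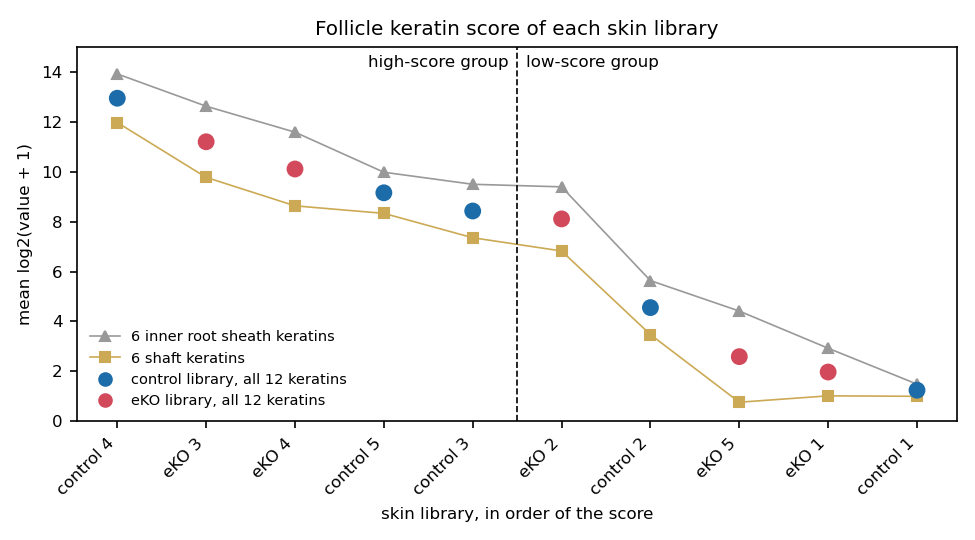
Follicle keratin score (mean log2(value + 1), vertical axis) of the 10 skin libraries in falling order (horizontal axis), with the score from the 6 inner root sheath keratins (triangles) and the 6 shaft keratins (squares) drawn separately. The score descends from 12.9 to 1.24 and eKO 2, at 8.11, sits nearer to the high-score group than to the other 4 libraries of the low-score group.

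The 12 keratins took 1.55% of the reads in control 4 and 2.23e-04% in control 1. Scores from the inner root sheath keratins alone and from the shaft keratins alone put 10 of 10 libraries in the same group. The high-score group holds 3 control and 2 eKO libraries and the low-score group 2 control and 3 eKO. Whether genotype and score were related was tested by an exact permutation test, since genotype comes from the labels and not from the score. Control skin had a mean score of 7.27 ± 4.49 (SD, n = 5) and eKO skin one of 6.80 ± 4.27 (SD, n = 5), a difference of -0.47 that was well inside the spread of either group (two-sided exact permutation p = 0.849, smallest possible p = 0.00794). The control libraries ran from 1.24 to 12.9 and the eKO libraries from 1.97 to 11.2, so the genotypes overlapped nearly throughout.

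Depth ran from 8.21 to 16.4 M reads (M, the SI prefix mega) per skin library. Grk2, the targeted gene, stood at 1237, 1331, 1331, 1100 and 1492 in control 1 to 5 and at 980, 1100, 1172, 1076 and 1224 in eKO 1 to 5, and did not pass the limma test for genotype (adjusted p = 0.354). Ddx3y, a Y-linked gene, was at 0.950 in control 5 and 0 in eKO 3 and between 1030 and 1304 in the other 8 libraries. Both of these libraries belong to the high-score group, so a difference of sex cannot be fully told apart from it. Medians over the other 8 libraries are given below for the lists that lead the comparison, but not for the Krtap family. Some libraries stood apart in single tissues: eKO 3 was lowest in skeletal muscle genes, and eKO 4 and control 2 were highest in genes of stressed epidermis.

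Because the score groups were chosen by the expression of the libraries themselves, every difference between them is a description and carries no test. It is given as the high minus low difference in log2(value + 1) from a linear fit with genotype as a covariate, with its standard error, and a gene is called separated when its 5 high and its 5 low libraries do not overlap. Of 16577 genes measured outside the 12 keratins, 225 were separated and higher in the high-score group (1.36%) and 258 were separated and lower (1.56%). With a difference of at least 2-fold as well, 100 genes were higher (0.603%) and 63 were lower (0.38%). The higher genes reached much larger differences: 58 of the separated genes were at least 16-fold higher, whereas 0 were at least 16-fold lower and 11 were at least 4-fold lower. List medians below count a gene listed at 0 in every library as a difference of 0. In bulk tissue, fewer cells of a type and less RNA per cell cannot be told apart, and this holds for every group of genes below.

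Most keratin-associated proteins, the cross-linking proteins that embed the keratin filaments of the hair shaft, were far higher in the high-score group. Of 58 genes of the Krtap family in the table, 5 were listed at 0 in every library and 36 passed the filter on low values, and 29 of those 36 were separated. A gene below 10 in every low-score library passed only if all 5 high-score libraries reached 10, which makes it separated. The share of the 36 that was separated is thus partly set by the filter. The same applies to other higher genes near 0 in the low-score group. Over all 58 genes 35 were separated and higher, and 0 were separated and lower. The median difference of the 53 genes with reads was 5.63, beside a median of -0.01 over all genes measured, and it was 5.66 with the 8 genes that held at most 3 reads in each low library set at that limit and without the 1 gene that stayed within it everywhere. In control 4, 52 Krtap genes reached a value of 10, in eKO 2 37 did, and in control 2, eKO 5, eKO 1 and control 1 no more than 6 did.

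Krtap8-1, a glycine- and tyrosine-rich member, had normalised read counts of 12334, 2889.5, 1101, 1275 and 627 in the high-score group and 337, 42.2, 1.46, 0 and 0 in the low-score group, a difference of 7.96 ± 2.00 (SE). The value in eKO 2 was far above those of the other 4 libraries of the low-score group, and eKO 1 and control 1 were at 0. Krtap11-1, a high-sulphur member, showed 6621, 1011, 600.1, 431 and 277 in the high-score group and 198, 13.5, 0, 0 and 0 in the low-score group, a difference of 7.49 ± 1.88 (SE). Krtap15 stood at 7128, 1000.4, 393, 492 and 419 in the high-score group and 179, 24.5, 0, 0 and 0 in the low-score group, which gave 7.31 ± 1.90 (SE). The remaining members with the highest mean were Krtap7-1, with a difference of 7.98 ± 1.94 (SE), and Krtap1-5, with 6.53 ± 1.56 (SE).

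Krtap3-2 was the exception among the 36 that passed the filter, where the next smallest difference was 4.45. Some genes that the filter left out had smaller differences, such as 2.19 in Krtap27-1. The normalised read counts of Krtap3-2 were 1143, 665, 183, 314 and 329 in the high-score group and 348, 409, 194, 248 and 267 in the low-score group. This gave a difference of 0.51 ± 0.52 (SE). Only control 4 and eKO 3 stood above every library of the low-score group, and eKO 4, next in the order after eKO 3, was the lowest of all 10 libraries. The relatives Krtap3-1 and Krtap3-3 were separated, with differences of 5.80 and 5.73. How the authors' counting treated reads shared between near-identical family members is not stated, so values of single Krtap genes are uncertain to that extent.

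The promoters of 3 Krtap genes that followed the score and of Krtap3-2, which did not, are shown to let their sequences be compared. Each is the 250 bases before the start site in RefSeq, 5′ to 3′ on the strand of the gene, with each match to TATAAA (the core of the TATA box) or CTTTGAA (the core of LEF1/TCF sites) on either strand in capitals.
Krtap8-1 (GRCm38.p6, chr16:89487953-89488202, minus strand): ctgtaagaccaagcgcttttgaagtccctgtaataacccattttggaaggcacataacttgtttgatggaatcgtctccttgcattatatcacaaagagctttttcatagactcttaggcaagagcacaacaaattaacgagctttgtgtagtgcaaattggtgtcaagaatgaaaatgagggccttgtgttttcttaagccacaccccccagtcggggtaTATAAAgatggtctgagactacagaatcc
Krtap11-1 (GRCm38.p6, chr16:89571184-89571433, minus strand): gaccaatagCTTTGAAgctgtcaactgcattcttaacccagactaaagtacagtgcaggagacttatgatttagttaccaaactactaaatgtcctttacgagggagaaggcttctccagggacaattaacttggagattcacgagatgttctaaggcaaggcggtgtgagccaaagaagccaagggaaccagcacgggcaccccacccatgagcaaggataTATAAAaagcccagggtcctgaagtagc
Krtap15 (GRCm38.p6, chr16:88828759-88829008, plus strand): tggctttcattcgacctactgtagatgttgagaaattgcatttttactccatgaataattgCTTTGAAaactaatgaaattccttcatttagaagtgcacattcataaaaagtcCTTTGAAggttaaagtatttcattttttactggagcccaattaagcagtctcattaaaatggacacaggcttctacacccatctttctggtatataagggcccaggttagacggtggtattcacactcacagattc
Krtap3-2 (GRCm38.p6, chr11:99556854-99557103, minus strand): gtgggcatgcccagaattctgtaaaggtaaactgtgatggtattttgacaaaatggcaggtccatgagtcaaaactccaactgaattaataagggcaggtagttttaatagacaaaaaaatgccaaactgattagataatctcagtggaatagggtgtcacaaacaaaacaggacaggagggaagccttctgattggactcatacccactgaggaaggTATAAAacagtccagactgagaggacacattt
TATAAA begins 29 bases before the start in Krtap8-1, 28 bases before it in Krtap11-1 and 32 bases before it in Krtap3-2, so the exception shares this feature. Krtap15 has no exact TATAAA in this window but holds the related run tatataag, so the missing match does not mean a missing TATA box. Krtap15 has CTTTGAA beginning 189 and 136 bases before the start, and Krtap11-1 has 1 beginning 241 bases before it.

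Promoters were matched by symbol for 51 of the 58 Krtap genes, and 41 of these windows (80.4%) held TATAAA on either strand, beside 12.4% of all 32851 promoter windows of the same length. On the strand of the gene, TATAAA began between 40 and 20 bases before the start in 31 of the 51 (60.8%) and in 1.99% of all windows. CTTTGAA was in 13.7% of the Krtap windows and 4.46% of all windows. Among windows of the other genes at least 2-fold higher and separated, 22% held TATAAA and 10.2% CTTTGAA, and for the 2-fold lower genes the shares were 8.70% and 2.17%. A match is a run of letters and not evidence of binding, and the 2 motifs do not overlap each other in the windows shown.

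Hair and root sheath keratins that the score did not use followed it closely. Of 12 such genes found, 8 were separated, all 12 had a positive difference, and the median was 5.06 (5.26 in the 8 libraries with Y-linked expression). Krt33b, a type I keratin of the shaft cortex, stood at 3288, 369, 237, 367 and 121 in the high-score group and 38.3, 3.37, 0, 0 and 0 in the low-score group, a difference of 7.21 ± 1.43 (SE). Krt83, a type II shaft keratin, stood at 5811, 946, 472, 461 and 255 in the high-score group and 169, 16.02, 1.46, 2.67 and 0.946 in the low-score group, a difference of 6.56 ± 1.56 (SE). Both stood below 3 in the last 3 libraries. Krt75, a keratin of the companion layer that surrounds the inner root sheath, kept a higher floor, with 6107, 5306, 2062, 1273 and 994 in the high-score group and 931, 608, 339, 401 and 581 in the low-score group and a difference of 2.23 ± 0.63 (SE). Krt84, a keratin of the hair cuticle and the tongue, overlapped, at 471, 389.8, 338, 20.9 and 16.7 in the high-score group and 31.4, 6.75, 4.39, 7.12 and 17.0 in the low-score group, because control 5 and control 3 were no higher than eKO 2.

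**Figure D2:**
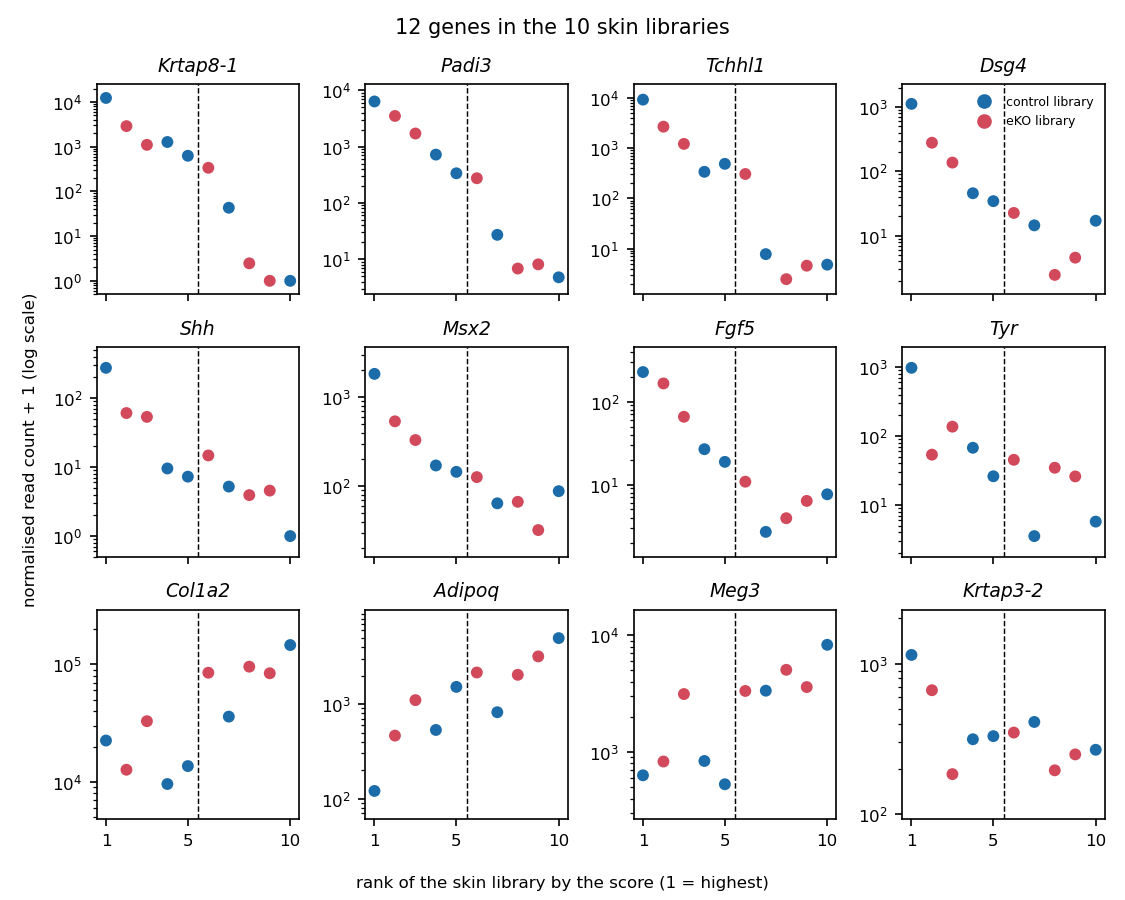
Normalised read count + 1 (log scale, vertical axes) of 12 genes in the 10 skin libraries, placed by rank of the score (horizontal axes, 1 is the highest), with the boundary of the score groups as a dashed line. Krtap8-1 falls from 12334 to 0 along the order, whereas Col1a2 is at least 35907 in every library of the low-score group and at most 32830.0 in the high-score group.

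Genes of the inner root sheath included enzymes that harden this layer. Padi3 encodes a peptidylarginine deiminase that converts arginines of trichohyalin to citrulline, and its normalised read counts were 6304, 3488, 1702, 719 and 334 in the high-score group and 273, 26.1, 5.85, 7.12 and 3.78 in the low-score group, a difference of 6.64 ± 1.37 (SE). Padi1, a second deiminase of the epidermis and follicle, stood at 2187, 692, 329.5, 164 and 166 in the high-score group and 58.9, 3.37, 8.77, 9.80 and 0.946 in the low-score group, a difference of 5.88 ± 1.04 (SE). Tgm6, a transglutaminase, was 1649, 702, 312, 99.8 and 97.1 in the high-score group and 70.7, 8.43, 0, 5.34 and 1.89 in the low-score group, which gave 5.77 ± 1.39 (SE). Tchhl1, a relative of trichohyalin, was 9182, 2661, 1208, 336 and 484 in the high-score group and 303, 6.75, 1.46, 3.56 and 3.78 in the low-score group, a difference of 7.22 ± 1.61 (SE), and Crnn, which encodes the S100-fused protein cornulin, was 6432, 2988, 1369, 730.0 and 478 in the high-score group and 246, 19.4, 2.92, 5.34 and 0 in the low-score group, with 7.48 ± 1.56 (SE). In each of these 5 genes eKO 2 had several times the value of any other library of the low-score group. Gata3, a transcription factor of the inner root sheath that is also expressed in epidermis and leukocytes, did not follow the score, with a difference of 0.04 ± 0.22 (SE). Tchh itself was listed at 0 in every library. Over the list of 9 genes of this layer, 3 were separated and the median was 1.46 (1.41 in the 8 libraries with Y-linked expression). Only 7 of the 9 had reads, all 7 with a positive difference, and the median of these 7 was 1.75.

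Proteins of the shaft and its cuticle were higher by a median of 2.74 (2.87 in the 8 libraries with Y-linked expression), with 4 of 9 genes separated and 9 of 9 positive. Gprc5d, an orphan receptor of the hair cortex, was 2092, 401, 198, 125 and 88.8 in the high-score group and 63.8, 8.43, 2.92, 1.78 and 1.89 in the low-score group, a difference of 5.39 ± 1.27 (SE). Dsg4, the desmoglein that joins cells of the shaft, was 1116, 277, 136, 44.7 and 33.4 in the high-score group and 21.6, 13.5, 1.46, 3.56 and 16.1 in the low-score group, a difference of 3.94 ± 1.19 (SE). Both dropped steeply from control 4 to control 3, but Dsg4 in control 1, the library with the lowest score, was close to that of control 2. Psors1c2 differed by 3.97 ± 0.91 (SE) and S100a3, a calcium-binding protein of the hair cuticle, by 2.74 ± 0.78 (SE).

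Regulators of the hair matrix were higher in the high-score group by smaller amounts and with more overlap. The median over 13 genes was 1.24, 11 were positive, and 2 were separated, Msx2 and Foxn1. Msx2, a homeobox factor needed for shaft differentiation, was 1831, 536, 329.5, 170.1 and 144 in the high-score group and 126, 63.2, 65.8, 31.2 and 87.0 in the low-score group, a difference of 2.47 ± 0.80 (SE). Foxn1, the factor missing in nude mice, was 1443, 622, 349, 297 and 361 in the high-score group and 272, 284, 278, 175 and 225 in the low-score group, a difference of 1.03 ± 0.47 (SE), and beyond control 4 and eKO 3 its values lay close together. Lef1, the Wnt effector of matrix and precortex, was 1837, 349, 255, 259 and 97.1 in the high-score group and 100.1, 19.4, 35.1, 30.3 and 44.5 in the low-score group, a difference of 3.10 ± 0.85 (SE), with eKO 2 just above control 3. Hoxc13, which activates hair keratin genes, differed by 2.29 ± 0.70 (SE) and Dlx3 by 1.75 ± 0.59 (SE). Without control 4 the median of the list was 0.82, and in the 8 libraries with Y-linked expression it was 1.53.

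Hedgehog signalling, which drives growth of the follicle bulb, showed its largest value in the ligand. Shh had normalised read counts of 274, 59.7, 52.4, 8.55 and 6.27 in the high-score group and 13.7, 4.22, 2.92, 3.56 and 0 in the low-score group, so that control 4, eKO 3 and eKO 4 stood clear of the rest while control 5 and control 3 overlapped with eKO 2. Its difference was 3.35 ± 1.15 (SE), and it did not pass the filter on low values. Gli1, a direct target of the pathway, was 499, 205, 294, 218 and 66.8 in the high-score group and 105, 68.3, 74.6, 98.0 and 65.3 in the low-score group, a difference of 1.47 ± 0.52 (SE). Mycn, another target, was the only one of the 9 genes of this list that was separated, with 582, 90.5, 139, 69.4 and 40.7 in the high-score group and 36.3, 9.27, 23.4, 26.7 and 26.5 in the low-score group and 2.39 ± 0.77 (SE). The median of the list was 1.24, 0.78 without control 4 and 1.54 in the 8 libraries with Y-linked expression.

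Wnt targets differed less, with a median of 0.55 over 13 genes, 12 of them positive and 1 separated. The median was 0.35 with the 1 gene of the list that held at most 3 reads in each low library set at that limit. Edar, the ectodysplasin receptor, was the separated gene, at 133, 76.4, 54.3, 89.3 and 34.5 in the high-score group and 32.4, 29.5, 30.7, 28.5 and 34.1 in the low-score group and a difference of 1.13 ± 0.35 (SE). Axin2, a widely used target of the pathway, did not follow the score and differed by -0.26 ± 0.17 (SE). Among 7 BMP targets 0 were separated and the median was 0.61, and 0.40 without eKO 3. Bambi, a decoy receptor that dampens BMP signals, led them with 1.59 ± 0.81 (SE), and its difference was 1.04 without control 4. The 6 signals that keep resting follicles refractory, among them Bmp2, Bmp4 and Fgf18, had a median of 0.16 and 0 of them were separated. The median was 0.08 without the 1 gene that held at most 3 reads in every library, and 0.01 without control 2.

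Fgf5, the growth factor that ends anagen, was the only separated gene among 11 growth factors of the cycle. Its normalised read counts were 226, 164, 64.6, 25.7 and 17.8 in the high-score group and 9.82, 1.69, 2.92, 5.34 and 6.62 in the low-score group, a difference of 3.72 ± 0.80 (SE), and the order of the libraries was that of the score as far as control 2. The median of the 11 genes was -0.26, and -0.15 without control 4. Dermal papilla genes had a median of 0.08 over 16 genes and 0 were separated. Corin, a protease of the papilla, was 86.8, 134, 76.8, 41.8 and 6.27 in the high-score group and 13.7, 9.27, 109.7, 27.6 and 18.9 in the low-score group and Rspo3, a Wnt agonist of the papilla, was 125, 44.9, 15.9, 172 and 74.1 in the high-score group and 90.3, 57.3, 51.2, 93.5 and 106 in the low-score group. Both overlapped between the score groups.

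Genes of the bulge stem cells showed little difference as a group, with a median of 0.08 over 12 genes and 0 separated. Lhx2, a transcription factor of the bulge and of the growing follicle, had the largest difference, 1.23 ± 0.31 (SE), at 712, 1119, 727, 839 and 362 in the high-score group and 361, 215, 289.6, 338 and 415 in the low-score group. Cd34, the surface marker of the bulge that is also on endothelium and dermal cells, was 141, 320.4, 283, 259 and 159 in the high-score group and 407, 269, 275, 393 and 384 in the low-score group, a difference of -0.53 ± 0.24 (SE). Krt15, a keratin of bulge and basal cells, differed by 0.02 ± 0.34 (SE).

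Genes of mitosis and DNA replication were higher in 22 of 23 cases, by a median of 0.55, and 0 were separated. Cdk1, the mitotic kinase, was 239.9, 135, 181, 78.9 and 72.1 in the high-score group and 100.1, 30.4, 80.4, 73.0 and 47.3 in the low-score group, a difference of 1.21 ± 0.38 (SE). Mki67, a marker of dividing cells, differed by 0.91 ± 0.39 (SE). Control 4, eKO 3 and eKO 4 were the highest libraries for Cdk1, and control 5 and control 3 lay within the range of the low-score group. The median of the list was 0.34 without control 4 and 0.83 in the 8 libraries with Y-linked expression.

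Pigment genes were led by 1 library. Tyr, which encodes tyrosinase, the first enzyme of melanin synthesis, was 976, 52.7, 136, 66.5 and 25.1 in the high-score group and 44.2, 2.53, 33.6, 24.9 and 4.73 in the low-score group, a difference of 3.03 ± 1.17 (SE). Dct, the next enzyme of eumelanin synthesis, was 3887, 475, 736, 608 and 188 in the high-score group and 342, 65.8, 342, 496 and 117 in the low-score group, a difference of 1.86 ± 0.92 (SE) that was 1.21 without control 4. Outside control 4 the score groups overlapped in both genes. The melanocyte list had a median of 1.05 over 12 genes, 11 of them positive and 0 separated, and of 0.67 without control 4 and 1.59 in the 8 libraries with Y-linked expression. With Oca2, which held at most 3 reads in each low library, at that limit the median was 0.56. Mitf, the master regulator of the lineage, differed by 0.07 ± 0.23 (SE), and Mlana was 195, 17.3, 18.7, 14.3 and 9.40 in the high-score group and 26.5, 16.9, 48.3, 35.6 and 126 in the low-score group.

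**Figure D3:**
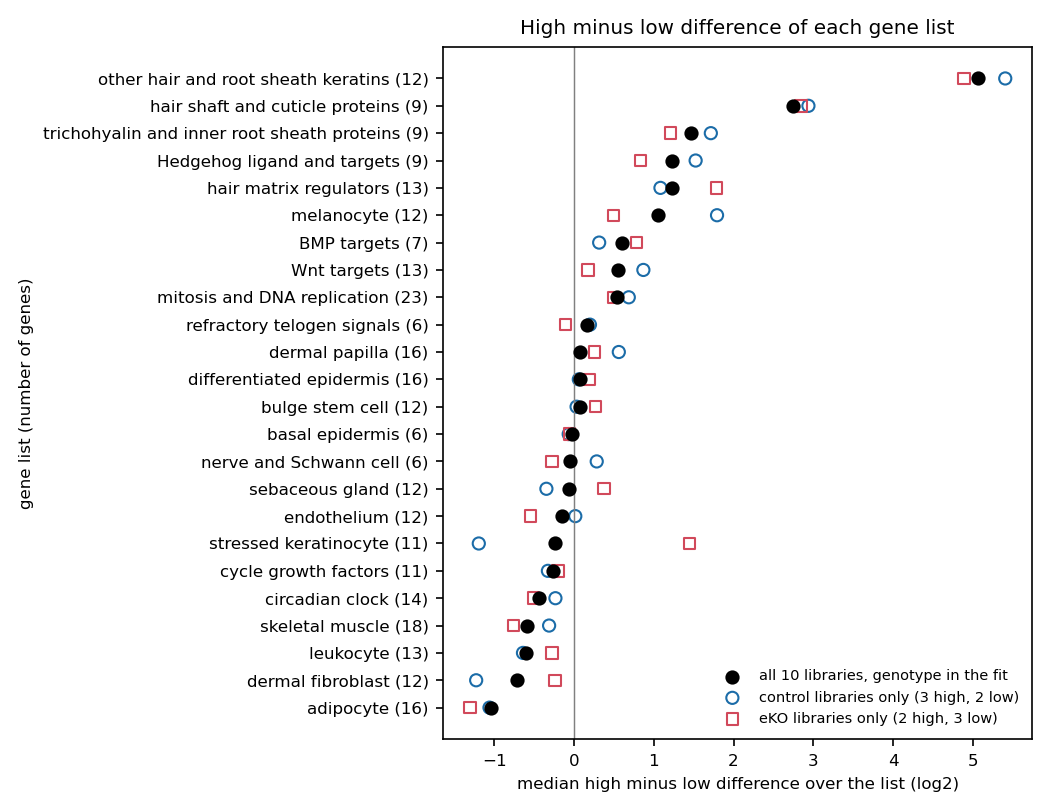
Median high minus low difference in log2(value + 1) (horizontal axis) of 24 gene lists (vertical axis, with the number of genes), over all 10 libraries (black) and within control (blue circles) and eKO (red squares) libraries. Over all 10 libraries the keratin, shaft and inner root sheath lists lie farthest to the right, while within eKO the matrix (1.79) and stressed keratinocyte (1.45) medians exceed the inner root sheath one (1.21), and the adipocyte, fibroblast and leukocyte lists lie to the left in both genotypes. Only 7 of the 9 inner root sheath genes had reads, and the others enter its medians as 0.

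Genes of the dermal matrix were among those lower in the high-score group. Col1a2, which encodes the α2 chain of type I collagen, had normalised read counts of 22482, 12688, 32830.0, 9592 and 13636 in the high-score group and 84818, 35907, 95502, 83911 and 145880.0 in the low-score group, a difference of -2.22 ± 0.48 (SE) with the score groups separated. Col1a1, the partner chain, was 18730.0, 10795, 28927, 6525 and 10518 in the high-score group and 74883, 26041, 84677, 73800.0 and 121730.0 in the low-score group, a difference of -2.25 ± 0.53 (SE), and overlapped because eKO 4 was above control 2. Sparc, a collagen-binding matrix protein, was 20857, 12313, 25108, 9218 and 16376 in the high-score group and 68104, 34966, 63255, 66459 and 103310.0 in the low-score group, a difference of -1.97 ± 0.39 (SE). Col3a1, of type III collagen, differed by -1.50 ± 0.39 (SE). In all 4 genes control 1, the library with the lowest score, was the highest of the 10, and no gradient ran through the high-score group, where control 4 was not the lowest.

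Among the separated genes with the largest negative differences were other genes of matrix deposition and turnover. Cthrc1, a secreted protein of matrix-producing fibroblasts, was 59.7, 52.7, 90.8, 40.9 and 25.1 in the high-score group and 204, 222, 380.2, 269 and 877 in the low-score group, a difference of -2.71 ± 0.53 (SE). Mmp3, a stromelysin that degrades matrix, was 127, 186, 321, 110.2 and 213 in the high-score group and 775, 609, 787, 849 and 951 in the low-score group, a difference of -2.05 ± 0.28 (SE), and Ctsk, a collagen-degrading cathepsin, was 1624, 1958, 2521, 1157 and 1689.6 in the high-score group and 5176, 3236, 5632, 6123 and 8606 in the low-score group, a difference of -1.59 ± 0.29 (SE). For Mmp3 the lowest value of the low-score group, 609, stood well above the highest of the high-score group, 321. Meg3, a long non-coding RNA of the imprinted Dlk1-Dio3 locus, was 632, 829.6, 3139.8, 838 and 529 in the high-score group and 3337, 3356, 5064, 3604 and 8294 in the low-score group, a difference of -2.15 ± 0.54 (SE), with eKO 4 just under the low-score group. Mirg, from the same locus, differed by -2.29 ± 0.53 (SE). Plcxd3 had the largest negative difference under the naming rule, -2.87 ± 0.53 (SE). Over the list of 12 fibroblast genes, 11 were negative, 1 was separated, and the median was -0.71 (-0.78 in the 8 libraries with Y-linked expression and -0.47 without control 1). The median of the fibroblast list was -1.22 within control and -0.24 within eKO libraries. Dcn, a proteoglycan of all dermal fibroblasts, differed by -0.66 ± 0.18 (SE).

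Adipocyte genes were lower in 15 of 15 cases with reads, by a median of -1.04 over the list, and 0 were separated. The list held 16 genes, of which Lipe was listed at 0 in every library. Adipoq, the hormone adiponectin of mature fat cells, was 119, 463, 1100.0, 531 and 1518 in the high-score group and 2156, 819, 2037, 3193 and 4984 in the low-score group, a difference of -1.95 ± 0.82 (SE). Lep, which encodes leptin, was 208, 594, 535, 900.1 and 3925 in the high-score group and 5318, 692, 3032, 10066 and 10374 in the low-score group, a difference of -2.42 ± 1.09 (SE), and Cidec, a protein of the lipid droplet, differed by -1.95 ± 0.75 (SE). In these 3 genes the lowest library was control 4, which has the highest score, and the highest was control 1, which has the lowest score. Control 2 went against this order and held less of each than eKO 2. Plin1, which coats the lipid droplet, differed by -1.64 ± 0.84 (SE) and by -1.04 without control 1. The median of the list in the 8 libraries with Y-linked expression was -0.96.

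Leukocyte genes were lower by a median of -0.59 over 13 genes, 11 of them negative, and 1 was separated. In the 8 libraries with Y-linked expression the median was -0.91. The mean log2 value of the list ran from 7.32 to 8.60 in the high-score group and only from 8.82 to 8.90 in the low-score group. Adgre1, which encodes the macrophage marker F4/80, was the separated gene, at 51.3, 272, 249, 276 and 173 in the high-score group and 294, 351, 325, 322 and 362 in the low-score group and a difference of -0.83 ± 0.48 (SE). Mrc1, the mannose receptor of tissue macrophages, was 245, 912, 1298, 880.1 and 419.8 in the high-score group and 940.4, 2925, 1394, 1241 and 1412 in the low-score group, a difference of -1.14 ± 0.55 (SE) that was -0.70 without control 2. The Mrc1 difference was -2.18 within control and -0.11 within eKO libraries. The 12 endothelial genes had a median of -0.15 and 0 were separated.

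**Figure D4:**
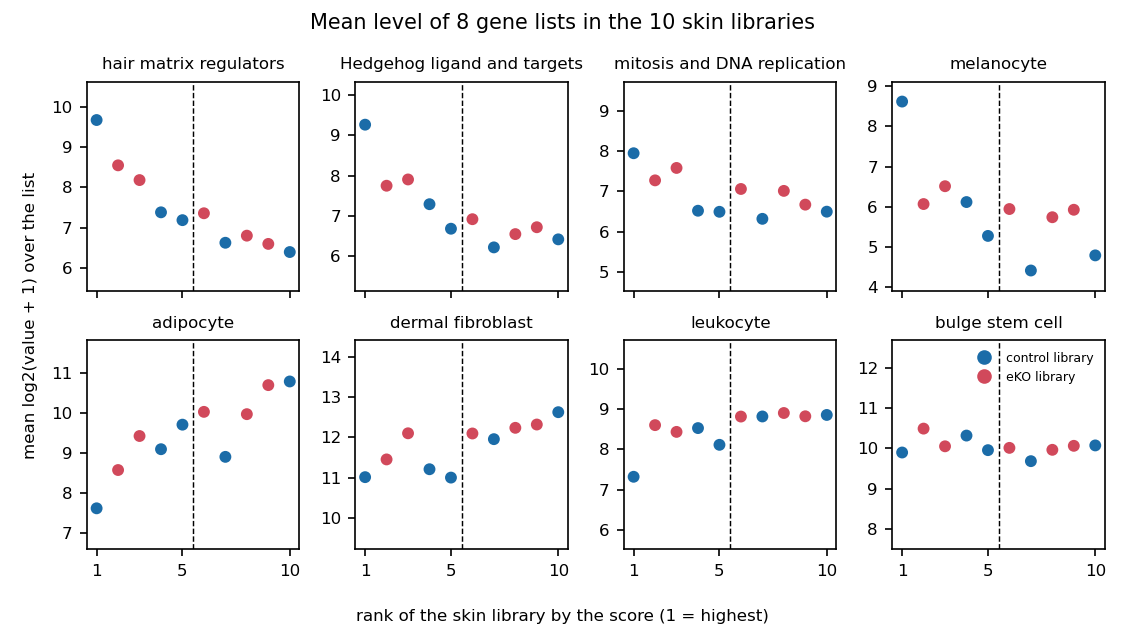
Mean log2(value + 1) (vertical axes, all spanning the same width) of 8 gene lists in the 10 skin libraries, placed by rank of the score (horizontal axes, 1 is the highest). The leukocyte mean is between 8.82 and 8.90 in every library of the low-score group and at most 8.60 in the high-score group, and the bulge list lies between 9.68 and 10.5 throughout.

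Other tissues of the skin varied between libraries. The medians of the basal, differentiated epidermis, sebaceous, endothelial, nerve, bulge and dermal papilla lists stayed between -0.39 and 0.22 when any 1 library was left out, and several changed sign within that range. Basal epidermis had a median of -0.02 over 6 genes, where Krt5, a basal keratin, differed by 0.02 ± 0.19 (SE) and Itgb1, a basal integrin chain, was separated and lower with -0.47 ± 0.17 (SE). Differentiated epidermis had a median of 0.08 over 16 genes. Flg, which encodes filaggrin of the cornified layer, was 49965 in eKO 4 and between 988 and 5704 in the other 9 libraries. Sebaceous genes had a median of -0.06 over 12 genes. Skeletal muscle genes were negative in 17 of 18 cases with a median of -0.59, and of -0.17 in the 8 libraries with Y-linked expression, -0.09 without eKO 3 and -0.97 without eKO 4. Acta1, the actin of skeletal muscle, was lowest in eKO 3, at 12481, and highest in control 2, at 56528. Whether the share of muscle in a piece of skin bears on the other lists was not tested.

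Stressed keratinocyte genes had a median of -0.24 over 11 genes, of -1.19 among control and of 1.45 among eKO libraries. The sign depended on single libraries: the median was 0.77 without control 2, 0.06 without control 4, 0.07 without control 5, -1.07 without eKO 4 and 0.32 in the 8 libraries with Y-linked expression. Krt6b, a keratin of the companion layer and of wounded epidermis, was 0, 175, 2824, 4.75 and 4.18 in the high-score group and 42.2, 2894, 254, 406 and 10.4 in the low-score group, so that eKO 4 of the high-score group and control 2 of the low-score group held nearly the same, highest amount. Clock genes had a median of -0.43 over 14 genes (-0.28 without eKO 4), led by Dbp, an output gene of the clock, with -1.24 ± 0.54 (SE), and by Per2, a core repressor, with -0.89 ± 0.31 (SE). The hour at which each skin was taken is not in the labels used here.

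The control and the eKO libraries can be compared without sharing any library. Within the controls the high-score group had 3 and the low-score group 2 libraries, and within the eKO it had 2 and 3. Across the 16577 genes the high minus low differences of the genotypes had a Pearson r of 0.525 and a Spearman rho of 0.262, over genes that are not independent replicates. All 100 higher and all 63 lower genes had the same sign in both genotypes, which their selection over the same libraries fixes. Of 593 genes at least 2-fold higher within control libraries, 219 were also 2-fold higher within eKO libraries, a share of 36.9% of the control and 44.1% of the 496 eKO genes. Over all 16577 genes, 3.58% were 2-fold higher within control and 2.99% within eKO libraries. Of 902 genes 2-fold lower within control and 627 within eKO libraries, 165 were shared, 18.3% and 26.3% of them, while the shares over all genes were 5.44% and 3.78%.

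**Figure D5:**
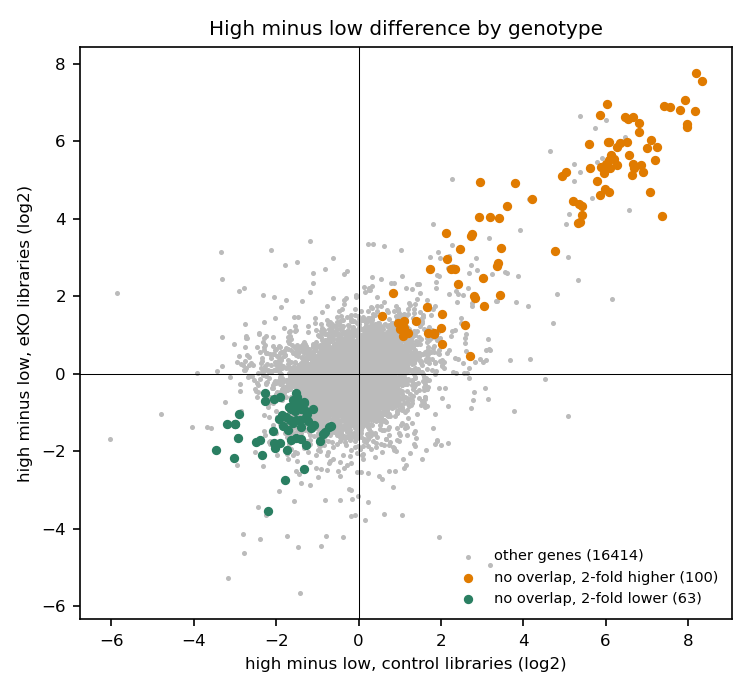
High minus low difference in log2(value + 1) within control libraries (horizontal axis) and within eKO libraries (vertical axis) for each of 16577 genes. The 100 separated and 2-fold higher genes (orange) reach 8.35 within control and 7.77 within eKO libraries, and the 63 lower genes (green) lie below 0 on both axes. The selection of both sets fixes their sign.

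Of the 100 higher genes, 94 had their highest value in control 4, and in 79 eKO 2 was the highest library of the low-score group. Of these 100 genes 29 were Krtap genes, 7 were keratins and 20 were predicted genes or RIKEN transcripts without an established name. Of the 63 lower genes control 4 was the lowest library in 19, and the lowest library of the low-score group was control 2 in 31 and eKO 2 in 16.

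Genotype was next tested with the score group as a covariate, in limma over 16589 genes. At an adjusted p of 0.05, 134 genes were called (0.808%), 83 higher (0.5%) and 51 lower (0.307%) in eKO skin. Without the score group in the fit 62 genes were called, and all 62 were among the 134. None of the 163 genes that separated the score groups by 2-fold was among the genotype calls, which is near the share of 0.808% over all genes. The number of calls was 186 without control 4, 2 without eKO 3 and 10 without eKO 1, and between 22 and 89 without any 1 of the other 7 libraries.

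Sebaceous genes held 6 of the called genes, all higher in eKO skin, out of 12. Elovl6, a fatty acid elongase, was 3730, 3284, 4534, 3912 and 4754 in control 1 to 5 and 14042, 15221, 15109, 19614 and 8169 in eKO 1 to 5, with no overlap and a log2 difference of 1.88 (limma adjusted p = 0.0134). It was called in 10 of 10 fits that left out 1 library. Krt79, a keratin of the sebaceous duct, Elovl3, Cidea, Soat1 and Far2 had differences of 1.37 to 1.76 and limma adjusted p between 0.0218 and 0.0432, and their calls were lost in 6 to 10 of those 10 fits. Sox9, a factor of the bulge and outer root sheath, was higher by 1.24 in eKO (limma adjusted p = 0.0376) and kept its call in 3 of 10. Sox9 also differed between the score groups by 0.76 ± 0.25 (SE), so that eKO 3 was the highest library and control 2 the lowest. Klk7, an epidermal protease, was called with a difference of 0.96 (limma adjusted p = 0.0332) and kept it in 3 of 10. Of the lists of hair keratins, shaft, inner root sheath, matrix, fibroblast, adipocyte and leukocyte genes, 0 genes were called for genotype by limma. In that order 11, 8, 7, 11, 12, 15 and 12 genes were tested. With 0.808% of all genes called, 0 calls is near the share over all genes and is no result about these lists.

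Whether the genotype difference depended on the score group was tested as an interaction, and limma called 0 of 16589 genes (0%), with a smallest adjusted p of 0.102 and 1107 genes at an unadjusted p under 0.05. The edgeR quasi-likelihood test called 0, 1163 passing 0.05 unadjusted, and DESeq2 called 69, 1302 passing 0.05 unadjusted. Leaving out 1 library gave limma 2 calls without control 4, 2 without eKO 3, 1 without control 5 and 0 without any of the other 7.

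The HFSC libraries, which the score did not use, allowed the same genes to be read in sorted cells. In limma, 2673 of 13784 genes differed between eKO and control HFSC (19.4%), 1468 rose (10.7%) and 1205 fell (8.74%) in eKO. Grk2, the targeted gene, was not called there either, with means of 135 in control and 114 in eKO HFSC. Its difference was -0.24 (limma adjusted p = 0.501). Of the 100 genes higher in the high-score group of skin, 28 could be tested in HFSC, 10 rose (35.7%) and 2 fell (7.14%). Of the 63 lower genes 22 could be tested, and 2 rose and 2 fell (9.09% each). The genes that could be tested are those with a value of at least 10 in 3 HFSC libraries, so that a gene near 0 in control cells entered only through the eKO libraries. These counts, and those of the lists in HFSC below, describe the genes that passed and give no support to any list.

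Genes near 0 in control HFSC passed the filter only through the eKO libraries, so their values are listed without a test. Padi3 was 0, 4.21 and 0 in the control HFSC libraries and 223, 158 and 308 in the eKO ones. Crnn was 0, 0 and 0 in the control HFSC libraries and 43.2, 69.1 and 70.3 in the eKO ones. Krtap15 was 0.997, 0 and 0 in the control HFSC libraries and 33.4, 31.8 and 38.3 in the eKO ones. In these 3 genes each eKO library stood above each control library. Among genes well above this filter in all 6 HFSC libraries, Krt75 rose by 1.16 (limma adjusted p = 0.00765), and so did the matrix regulators Lef1, by 1.23 (adjusted p = 0.000581), and Hoxc13, by 1.13 (adjusted p = 0.000307). Mycn went the other way, with 1057, 1060.3 and 1251 in the control HFSC libraries and 600.5, 599 and 713 in the eKO ones, and fell by 0.82 (limma adjusted p = 0.000622). Of 11 matrix regulators tested in HFSC 6 rose and 0 fell, and of 8 Hedgehog genes 0 rose and 4 fell.

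Markers of other cell types moved with genotype in the same HFSC libraries. Of 10 endothelial genes tested 9 rose in eKO with a median difference of 4.69, of 10 sebaceous genes 8 rose, of 12 genes of differentiated epidermis 8 rose and 2 fell, and of 5 stressed keratinocyte genes 5 rose. The 4 Y-linked genes fell in eKO by a median of 1.70. The part of other cells or of the sex of the animals in the HFSC differences was not tested.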

How the data were processed

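Poly-A RNA of 10 skin and total RNA of 6 HFSC libraries was analysed. The authors deposited 1 table per tissue, whose values are a signal, gene read counts divided by a factor per library. The submitters' processing notes name GRCm39 and, for skin, featureCounts and DESeq2, without version or role. In skin, dividing each column by its smallest step gave whole numbers within 0.01 for 100% of values, so reads were recovered there. Genes were named by identifier from a GENCODE list (94.1% of skin and 91.4% of HFSC rows), and promoters came from RefSeq on GRCm38.p6.

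Differences were fitted in limma 3.58.1 (R 4.3.3) on log2(value + 1), which understates changes of low genes. High minus low differences and their standard errors came from a linear fit without a prior, over all genes in the table. Tests of genotype and interaction used a trended prior. The tests and the genes counted as measured were limited to genes reaching 10 in 5 skin or 3 HFSC libraries. Adjustment was Benjamini-Hochberg over all genes tested. Alternatives used edgeR 4.0.16 and DESeq2 1.42.0 on the recovered reads. The fits were also run on simulated reads, with the same spread for every gene and no tissue differences between libraries. Such reads cannot show how the fits perform on these libraries. P-values measure the spread between these libraries, which may be technical. Reads carry no molecular identifiers.

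The score, the gene lists and the comparisons were chosen with earlier results of these data known. Named genes are up to 5 of each list with the largest absolute difference, the 15 largest and 15 smallest differences among separated genes with a mean of at least 50 outside the Krtap family, the 5 Krtap genes of highest mean, and Grk2. Krtap3-1, Krtap3-2, Krtap3-3, Krt75, Krt84, Gata3, Foxn1, Dlx3, Axin2, Rspo3, Krt15, Mki67, Mitf, Mlana, Dcn, Krt5, Acta1, Ddx3y and the genes called for genotype or in HFSC were named after their values were seen.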

Additional observations from a re-analysis of the deposited data

Results flagged for a closer look

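Within each genotype and each score group, a library was singled out when its gap to the nearest other library, divided by the range of its group of 5, exceeded the 95% critical value of Dixon's test. This held for 26 of 420 groups (6.19%). The usual chance rate of about 1 in 20 is no yardstick here. The groups share libraries and genes, and the score groups were cut from an ordering of the same libraries. The cases below are descriptions. All values here are on the log2(value + 1) scale.

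Library eKO 2 stood above the rest of the low-score group in hair and root sheath keratins outside the score (mean 5.56), in inner root sheath proteins (mean 6.57), in shaft proteins (mean 5.96) and in Tchhl1 (8.25). Control 4 stood above the other controls in mitosis genes (mean 7.95) and in Krt84 (8.88), Dsg4 (10.1), Dlx3 (12.1), Foxn1 (10.5) and Bambi (9.92), and above the rest of the high-score group in Mlana (7.62). In Adgre1 (5.71) it stood below the rest of the high-score group.

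Library eKO 3 stood apart from the other eKO libraries with higher bulge genes (mean 10.5) and with lower skeletal muscle (mean 9.44), fibroblast (mean 11.5) and nerve genes (mean 6.06), lower Acta1 (13.61) and lower Meg3 (9.70). Library eKO 4 stood above the rest of the high-score group in Krt1 (17.2), Flg (15.6) and Meg3 (11.6). Control 2 stood apart from the rest of the low-score group with lower bulge (mean 9.68) and nerve genes (mean 6.16), higher muscle genes (mean 12.5) and higher Itgb1 (12.5). Control 1 was below the rest of the low-score group in Krt14 (13.9).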

How the results depend on the processing

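The groups differed by 2-fold without overlap in 163 genes. This count was 91 with a minimum value of 50, and with fewer libraries on each side, where fewer have to be kept apart, it was 919 for the 3 highest against the 3 lowest libraries, 1079 within control, 894 within eKO and 336 among libraries with Y-linked expression. Leaving out 1 library gave 158 to 305 genes, with 305 without control 2, 280 without control 3, 280 without eKO 4 and 248 without eKO 2. The 6 highest against the 4 lowest libraries, an alternative chosen after seeing the data, gave 165 genes, 119 higher and 46 lower, where the main split was 100 and 63. Of 146 named genes 46 were separated, and under 26 alternatives 0 of these 46 reversed. Where an alternative compares the same groups on the deposited values, with or without some libraries, separation itself fixes the sign. The count of reversals was therefore mostly set in advance and gives no support. For list medians 8 of 624 values moved, all of them with 3 against 3 libraries or within 1 genotype, by more than the spread between libraries.

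Genotype calls in skin numbered 134 with the score group in the fit, 62 without it and 837 with DESeq2, and ran from 2 to 186 when 1 library was left out. Interaction calls numbered 0, 69 with DESeq2 and 0 to 2 when 1 library was left out. The difference of the score by genotype was -0.47 and changed sign to 0.085 for the inner root sheath keratins alone (exact permutation p = 0.960), and ran from -1.98 to 0.95 when 1 library was left out. HFSC calls numbered 2673, and 1540 to 2643 when 1 library was left out, which leaves 1 group with 2 libraries. With the replicate number as a block they numbered 2696, 1464 higher and 1232 lower, but the numbers did not pair the HFSC libraries: the correlations of same-numbered deviations were -0.06, -0.02 and -0.03. Where no cause is given, the cause was not tested. TMM scaling and count tests were not run in HFSC, where whole reads were not recovered. Scaling by library size alone moved the median of all genes in skin from -0.01 to 0.07. Depth limits what can be said of single reads: 3 reads or fewer in a library were treated as the floor.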

Other observations

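Several separated genes outside the lists were chosen after their values were seen, and are given as descriptions with no test. Dio3, the deiodinase that inactivates thyroid hormone, had normalised read counts of 54.1, 144, 50.6, 17.1 and 10.4 in the high-score group and 9.82, 5.06, 1.46, 4.45 and 0 in the low-score group, a high minus low difference of 3.62 ± 0.77 (SE), and lies in the imprinted locus that also holds Meg3 and Mirg, both of which were lower. Pthlh, which encodes parathyroid hormone-related protein, a follicle and keratinocyte hormone, was 259, 258, 131, 125 and 102 in the high-score group and 48.1, 49.7, 55.6, 61.5 and 43.5 in the low-score group, a difference of 1.70 ± 0.30 (SE). Ptgds, the synthase of prostaglandin D2, was 155, 27.0, 25.3, 52.3 and 34.5 in the high-score group and 19.6, 4.22, 24.9, 13.4 and 18.9 in the low-score group, a difference of 1.58 ± 0.68 (SE). Lox, the lysyl oxidase that cross-links collagen, was 1227, 1027, 1482, 558 and 1563 in the high-score group and 2321, 1842, 3119, 3146 and 4024 in the low-score group, a difference of -1.31 ± 0.36 (SE). Serpina3n, a secreted protease inhibitor, differed by -1.36 ± 0.40 (SE) and Prelp, a leucine-rich proteoglycan of connective tissue, by -1.46 ± 0.40 (SE). Dio3, Pthlh and Ptgds did not overlap between the groups in the higher direction, and Lox, Serpina3n and Prelp did not overlap in the lower direction.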
